A study of Homo sapiens with 12 samples.

Results

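HL60 cells exposed to palbociclib and all-trans retinoic acid (ATRA) together were compared with non-treated HL60 cells across all genes with enough counts in one RNA-seq series. The comparison rests on 6 of its 12 libraries, 3 per group, and its libraries were selected by drug treatment alone. CDK4/6i+ATRA cells had received 1 µM palbociclib, a CDK4/6 inhibitor, and 1 µM ATRA for 48 h, and non-treated cells had received neither drug. The other 6 libraries, 3 with ATRA alone and 3 with palbociclib alone at the same dose and time, entered the shared estimate of the spread and are quoted where the doubly treated cells are set against them. HL60 is a single human acute myeloid leukemia line without the PML-RARA fusion, so every value describes 1 line. The labels number the 3 libraries of a group as biological replicates of that line, and the p-values measure the spread between them.

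ATRA binds retinoic acid receptors on DNA and drives myeloid leukemia cells of this kind toward neutrophil-like cells. Palbociclib blocks CDK4 and CDK6, the kinases that inactivate RB and so release E2F-driven transcription of S-phase genes. Neutrophil maturation normally replaces primary (azurophil) granule transcripts with those of later granules, the NADPH oxidase and adhesion and chemotactic receptors.

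Total counts were 15392648 to 16935515 in the non-treated libraries and 12230923 to 14415276 in the CDK4/6i+ATRA libraries, and 3 counts per library, used as the detection floor, corresponded to mean levels of 0.179 and 0.263 CPM (counts scaled to a common library total). CPM was scaled with TMM factors, which were 1.025 to 1.05 in the non-treated and 0.8404 to 0.8931 in the CDK4/6i+ATRA libraries, so a CPM value is slightly lower than the plain share of counts in the former and higher in the latter. Because counts are relative, a smaller number of cells of some kind and less RNA per cell cannot be told apart.

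The libraries carried the myeloid identity given on their labels. The azurophil enzyme gene MPO stood at 6666, 6550 and 6336 CPM in the non-treated libraries, and SPI1, which encodes the myeloid transcription factor PU.1, at 302 ± 3.03 CPM (SD, n = 3) in non-treated and 855 ± 15.5 CPM in CDK4/6i+ATRA cells. CD33, a myeloid surface antigen, was at 93.9 ± 2.50 and 99.8 ± 5.24 CPM and did not pass the test (adjusted p = 0.0805, edgeR quasi-likelihood), though it was called higher with DESeq2 size factors (adjusted p = 0.0385), with at least 10 counts in every library (0.0146) and without CDK4/6i+ATRA library 1 (0.0179), and lower with library size alone. HBB, MS4A1 and EPCAM, markers of red cells, B cells and epithelium, had no count in any of the 6 libraries. COL1A1, a fibroblast marker, stayed under the floor on average in both groups, and CD3E was at 2.07 CPM in non-treated and 0.813 CPM in treated cells. ELANE was listed at 0 in every library, as were AZU1 and PRTN3, and all of these are annotated on more than one contig of the reference, so nothing can be read from their zeros.

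Double treatment moved most of the measured transcriptome. Of 13318 genes tested, 10885 (81.7%) differed at an adjusted p under 0.05 (edgeR quasi-likelihood test, Benjamini-Hochberg adjustment), with 5461 (41%) higher and 5424 (40.7%) lower in CDK4/6i+ATRA cells. At least 2-fold changes were called for 2965 genes upward (22.3%) and 3098 downward (23.3%). At a 4-fold limit the counts were 1461 upward and 1412 downward. At 64-fold they were 239 and 90, where fitted folds of genes near 0 in 1 group depend on the prior count. All 3 CDK4/6i+ATRA libraries lay above all 3 non-treated libraries for 5470 genes and below them for 5428. The balance of rises and falls depends on scaling, and with library size as the only scaling 40.5% of calls were upward, against 50.2% here, with a median log2 fold change over all tested genes of −0.25 against 0.02.

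Direction varied with the level a gene had before treatment. Among 2217 genes under 1 CPM in non-treated cells, 1202 rose and 208 fell. In the class from 100 to 1000 CPM 1343 of 2088 genes fell and 617 rose, with a median log2 fold change of −0.48. The 106 genes at 1000 CPM or more were all called, 75 upward and 31 downward. Genes were classed by the same non-treated libraries that enter the fold change, and a gene near 0 has more room to rise than to fall, so these counts are a description.

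**Figure D1:**
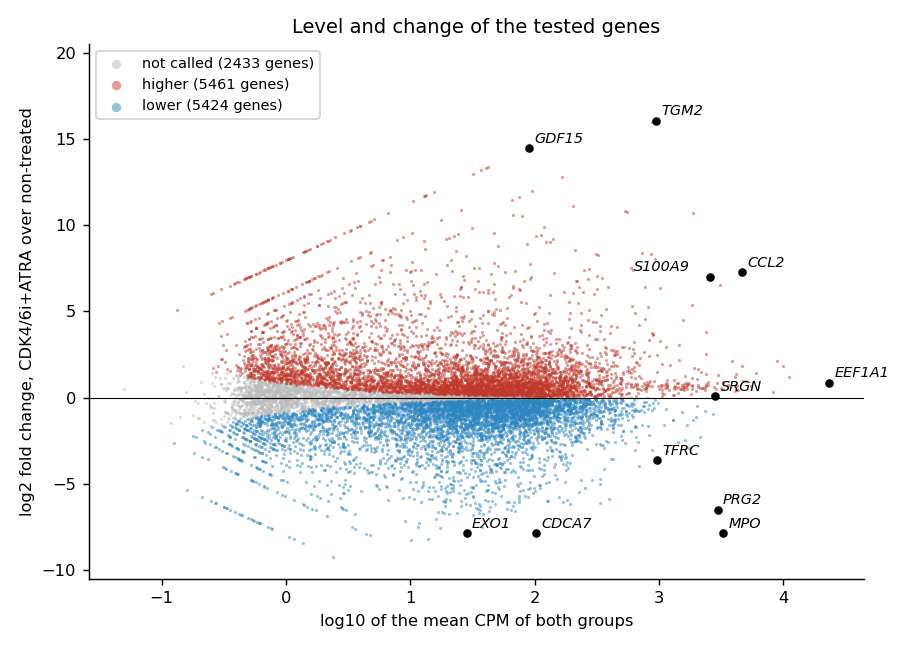
Each point is 1 tested gene, placed by the log10 of its mean CPM over both groups and by its log2 fold change in CDK4/6i+ATRA over non-treated cells, with red for called higher, blue for called lower, grey for not called and black for labelled genes. Calls lie on both sides at all levels, 5461 above and 5424 below the zero line, and the diagonal bands at low levels are genes with 0 or few counts in 1 group, whose fitted fold changes depend on the prior count.

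Movement between levels was wide enough to bring silent genes among the most abundant ones. After double treatment 155 genes were at 1000 CPM or more, 4 of which had been under 1 CPM, 6 between 1 and 10 CPM and 11 between 10 and 100 CPM. Another 20 genes went from under 1 CPM to between 100 and 1000 CPM. In the other direction, 25 genes left the class above 1000 CPM, 3 of them to below 100 CPM.

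The composition of the doubly treated transcriptome was more concentrated. The 50 highest genes of each group held 16.62%, 16.47% and 16.72% of counts in the non-treated libraries and 22.68%, 24.36% and 24.85% in the CDK4/6i+ATRA libraries. The groups did not overlap (16.6% ± 0.126 against 24.0% ± 1.14, SD, n = 3 each), with an exact two-sided permutation p of 0.1, the smallest that 3 against 3 libraries allow. It took 668, 675 and 671 genes to reach 50% of counts in non-treated libraries, and 409, 361 and 342 in CDK4/6i+ATRA libraries. The same 50 genes that led the treated cells held 12.6% ± 0.357 of counts before treatment.

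**Figure D2:**
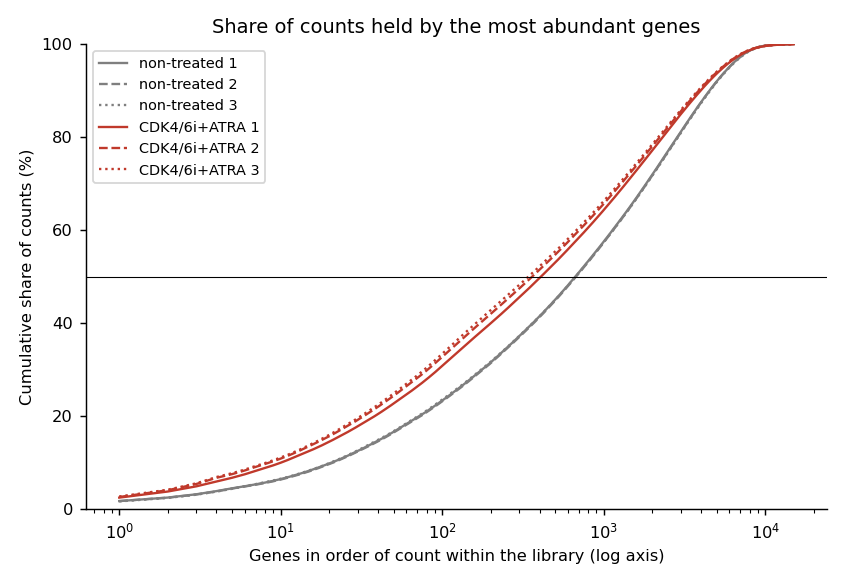
Cumulative share of counts (percent) against the number of genes, ranked from most to least abundant within each library, on a log axis, with 1 line per library and a horizontal line at 50%. The 3 CDK4/6i+ATRA lines run above the 3 non-treated lines up to rank 8189 of the ranks drawn and meet or cross them beyond it, where all libraries are above 98%, and the 50 highest genes of each library hold 22.7% to 24.9% of counts against 16.5% to 16.8%.

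Of the 50 highest genes in CDK4/6i+ATRA cells, 16 were cytosolic ribosomal protein genes and 9 mitochondrial genome genes. EEF1A1, the elongation factor that delivers aminoacyl-tRNA to ribosomes, was first in both groups, at 16858, 16609 and 15830 CPM before and 27691, 30410 and 32355 CPM after treatment. ACTB, the main cytoplasmic actin, went from 6870, 6434 and 6611 CPM to 14728, 15541 and 16129 CPM. In both genes every treated library exceeded every non-treated one, with log2 fold changes of 0.88 ± 0.0524 and 1.22 ± 0.0486 (SE), and both have many near-identical copies in the genome, which makes their counts uncertain. The glycolytic enzyme gene PKM rose from 2068, 2003 and 1985 to 6945, 7331 and 7425 CPM. FLNA, an actin crosslinker, rose from 1516, 1417 and 1466 to 6440, 6328 and 6145 CPM. Neither gene's groups overlapped, and the log2 fold changes were 1.84 ± 0.0457 and 2.10 ± 0.0451.

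Mitochondrial genome transcripts filled 9 of the 50 highest places after treatment and 4 before. All 15 tested were higher, against 41% of all tested genes, with a median log2 fold change of 1.37, and their summed level went from 21450 to 64860 CPM. COX1, a core subunit of cytochrome c oxidase, stood at 3966, 3565 and 5477 CPM in non-treated and 12468, 17087 and 17323 CPM in CDK4/6i+ATRA cells. RNR2, the mitochondrial large ribosomal RNA, stood at 2983, 2945 and 3944 CPM and at 11512, 15579 and 16386 CPM. The groups did not overlap, but non-treated library 3 was high and CDK4/6i+ATRA library 1 low within its group for both genes, as for the whole mitochondrial share (2.00%, 1.90% and 2.79% against 4.64%, 6.04% and 6.10% of counts). Leaving out 1 library at a time kept the log2 fold change of COX1 between 1.72 and 2.04. Cytosolic ribosomal protein genes took 16 of the 50 highest places in non-treated cells too, and their share went from 9.82% ± 0.118 to 12.4% ± 0.507 (exact permutation p = 0.1).

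Of the 50 highest genes in CDK4/6i+ATRA cells, 32 were also among the 50 highest in non-treated cells and 8 had been outside the highest 500. All 50 were called higher, 23 of them at least 2-fold, against a background of 41% higher. These genes were picked for a high treated level, so the count leans upward by construction, and with library-size scaling SRGN and RPSA were lower instead. The SRGN call was also lost with a replicate block (adjusted p = 0.0781, edgeR quasi-likelihood), with the 6 compared libraries alone (0.0901) and on leaving out any single library other than CDK4/6i+ATRA library 1 (0.0862 to 0.188).

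**Figure D3:**
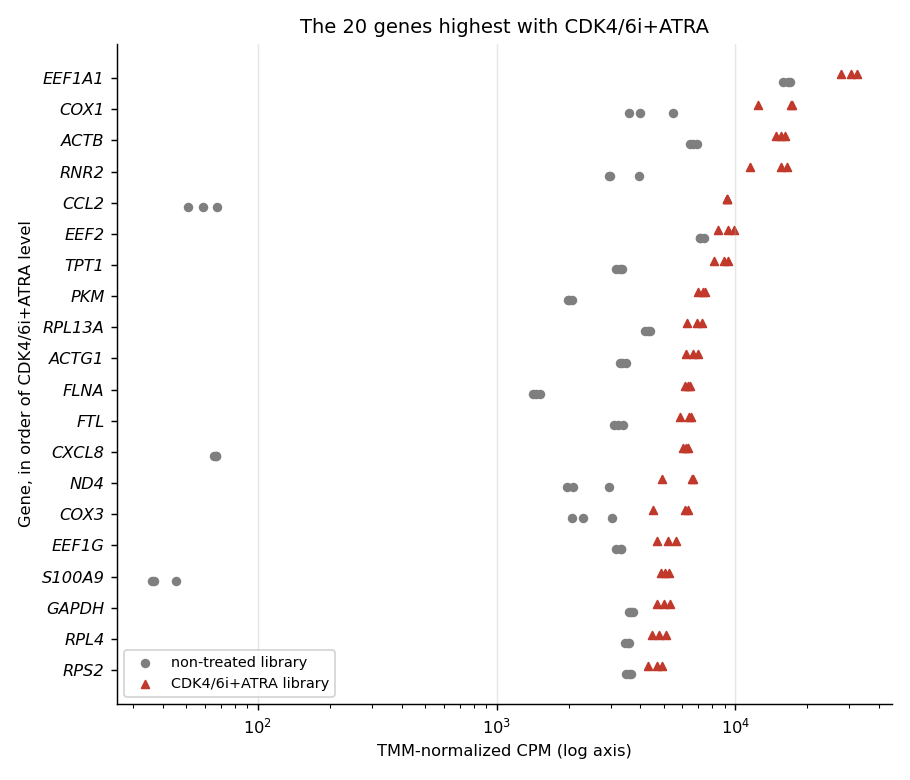
Level of the 20 most abundant genes of CDK4/6i+ATRA cells (CPM, log axis), with 1 circle per non-treated library and 1 triangle per CDK4/6i+ATRA library. EEF1A1 leads both groups, whereas CCL2, CXCL8 and S100A9 stood at means of 59.0, 66.2 and 39.3 CPM in non-treated cells.

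CCL2, which encodes the monocyte chemoattractant MCP-1, lies on chr17:34255285-34257203 and went from place 3613 to place 5. It stood at 58.6, 50.7 and 67.5 CPM in the non-treated libraries and at 9182, 9239 and 9234 CPM in the CDK4/6i+ATRA libraries, a difference far beyond the spread of either group (156-fold, log2 fold change 7.29 ± 0.0742, adjusted p = 2.58e-53, edgeR quasi-likelihood). Per length of transcript it was the most abundant gene of the treated cells, at 24172 TPM (counts divided by gene length and scaled to a common total). Either drug alone gave less, with 1898 CPM after ATRA and 251 CPM after palbociclib, log2 differences of 2.28 and 5.20 that both passed the test.

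S100A9 and S100A8 encode the calprotectin subunits of the neutrophil cytosol. S100A9 was at 45.3, 36.6 and 36.2 CPM before and 4892, 5053 and 5264 CPM after treatment, with a log2 fold change of 7.01 ± 0.0664. S100A8 went from 6.96 ± 0.223 to 1845 ± 78.6 CPM. Every treated library exceeded every non-treated one by far more than the spread within a group. CYBB, the catalytic subunit of the phagocyte NADPH oxidase, rose from 130, 129 and 135 to 2959, 2978 and 3113 CPM, and the lysosomal protease gene CTSD from 313, 313 and 314 to 4180, 4501 and 4709 CPM. None of these genes' groups overlapped.

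The untreated profile lost different leaders. MPO, on chr17:58269855-58280935, fell from the values above to 25.5, 24.5 and 33.9 CPM, from place 4 to place 5393 (log2 fold change −7.86 ± 0.0779, adjusted p = 9.24e-54, edgeR quasi-likelihood). PRG2, which encodes eosinophil major basic protein, fell from 5865, 5983 and 5724 CPM to 61.7, 61.1 and 71.3 CPM. Every treated library was below every non-treated one for both genes. With ATRA alone MPO was at 293 CPM and PRG2 at 286 CPM. With palbociclib alone they were at 3469 and 7205 CPM, the PRG2 level being above its non-treated mean of 5857 CPM. TUBA1B, an alpha-tubulin, fell from 2095 ± 52.8 to 243 ± 18.2 CPM. The transferrin receptor gene TFRC was at 1862, 1811 and 1687 CPM and then at 140, 150 and 144 CPM. The endoplasmic reticulum genes P4HB and CALR, the nucleolar genes NCL and NPM1 and the chromatin-associated PTMA fell too, with log2 fold changes of −2.30, −2.47, −2.55, −1.60 and −2.94. Of the 50 highest non-treated genes, 33 rose and 17 fell, or 31 and 19 with library-size scaling, against a background of 41% and 40.7%. They were picked for a high non-treated level, so the count leans downward by construction.

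RHOA, SRGN, OAZ1 and EIF4G2 were among the 5 of the 200 most abundant genes that stood closest to no change. RHOA, a regulator of the actin cytoskeleton, was at 792 ± 4.54 and 824 ± 37.4 CPM (log2 fold change 0.06 ± 0.0404, adjusted p = 0.182, edgeR quasi-likelihood), but was called higher with at least 10 counts in every library (0.0293), by DESeq2 (0.0487) and without CDK4/6i+ATRA library 1 (0.0267). SRGN, OAZ1 and EIF4G2 differed by 0.09, 0.12 and 0.13 on the log2 scale and were called, SRGN with the losses of call given above. With no filter, OAZ1 and EIF4G2 lost their calls (adjusted p = 0.95 and 0.824, edgeR quasi-likelihood), and EIF4G2 also without non-treated library 3 (0.0608). Library-size scaling turned all 4 to the lower side.

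Summed over called genes, rises added 473500 CPM and falls removed 279000 CPM, and the same called genes gave 341600 and 332800 CPM with library-size scaling of the levels. The gain was carried by fewer genes, with 126 making up 50% of it and 359 making up 50% of the loss.

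The largest rises by fold came from genes with hardly any count before treatment. TGM2, the gene of transglutaminase 2 on chr20:38127385-38168475, had 1 count over the 3 non-treated libraries and reached 1846, 1883 and 1922 CPM. The ratio was 94900, with a 95% counting interval of 17000 to 3750000. Its fitted log2 fold change ran from 15.56 to 17.84 on leaving out 1 library at a time. PTGES, which encodes a prostaglandin E synthase, also had 1 count and reached 1667, 1781 and 1836 CPM. With ATRA alone TGM2 was at 2024 CPM and PTGES at 505 CPM, while palbociclib alone left TGM2 at 0.0204 CPM and gave no count for PTGES.

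GDF15, a stress-induced cytokine gene, had no count in non-treated cells and was at 182, 185 and 174 CPM after double treatment, at least 1007-fold higher when set against 3 counts per library. It was at 5.53 CPM with ATRA alone and 0.0204 CPM with palbociclib alone. AQP9, a water and glycerol channel, ADGRE3, an adhesion receptor of myeloid cells, EPAS1, the hypoxia factor HIF-2α, and CHST15 also started from 0 and were at least 472-, 415-, 354- and 174-fold higher. The antisense gene PTPRN2-AS1 was at least 454-fold higher, but the counting is not stated to use strand, so reads of its sense partner cannot be told apart. KIAA0513 and DHRS3, a retinal reductase, reached 332 ± 12.6 and 190 ± 3.48 CPM from 2 counts each.

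Among genes of at least 20 CPM, the 10 largest falls were those of TEX15, POLE2, EXO1, CDCA7, MPO, CDCA3, DSCC1, NEIL3, E2F8 and CHAF1B. CDCA7, a chromatin regulator, fell from 209, 210 and 198 CPM to 0.825, 1.25 and 0.578 CPM. EXO1, a repair exonuclease, fell from 55.4, 59.9 and 54.3 CPM to 0.183, 0.0891 and 0.413 CPM. NEIL3, a DNA glycosylase, fell from 76.6, 78.0 and 71.1 CPM to 0.367, 0.624 and 0.248 CPM. CDCA3, DSCC1, E2F8 and CHAF1B had log2 fold changes of −7.56, −7.53, −7.24 and −7.04. TEX15 and POLE2, the latter a subunit of DNA polymerase epsilon, retained 2 and 3 counts over the treated libraries, and their non-treated levels were 345 times (95% counting interval 95.2 to 2850) and 317 times (108 to 1540) higher. Only genes without overlap between the groups were ranked, so their lack of overlap was set by the choice. With ATRA alone CDCA3 was at 36.6 CPM and E2F8 at 36.1 CPM, the latter above its non-treated mean of 23.3 CPM. With palbociclib alone CDCA3 and E2F8 were at 0.774 and 0.971 CPM.

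**Figure D4:**
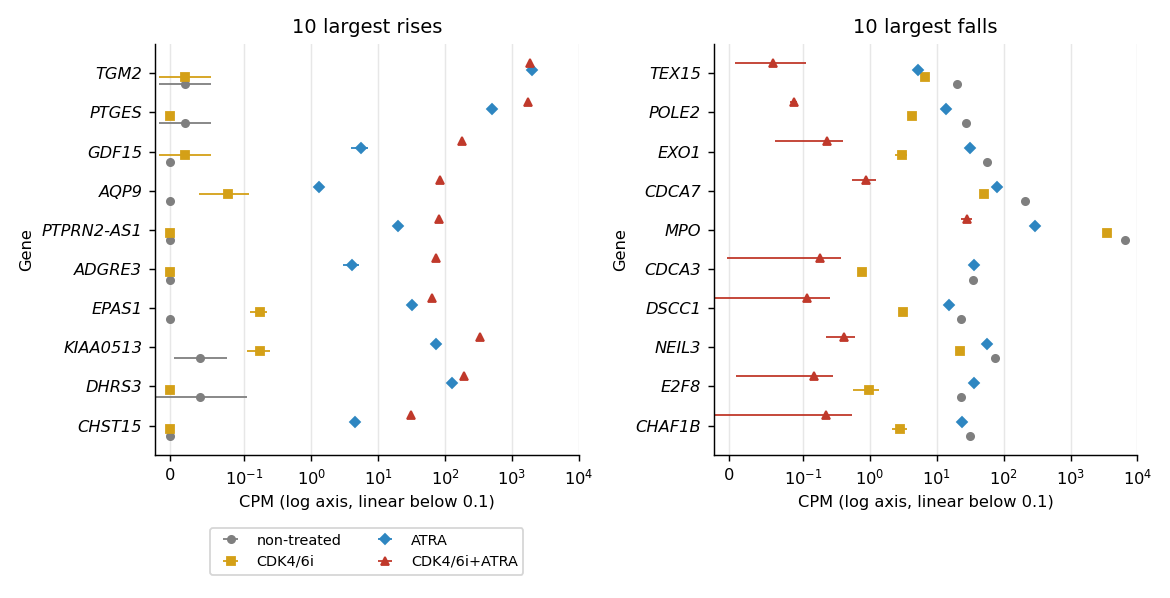
Mean level (CPM, log axis, linear below 0.1) of the 10 largest rises and the 10 largest falls in the 4 groups, with bars for the SD of 3 libraries. TGM2 and PTGES reach 1884 and 1762 CPM with CDK4/6i+ATRA from 1 count in non-treated cells, and MPO falls from 6517 to 28.0 CPM.

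With 3 counts as the floor and 5 CPM as the limit for presence, 72 genes were detected after double treatment alone and 23 in non-treated cells alone, and with 10 counts as the floor 160 and 99. The 72 included LIF, a cytokine of the IL-6 family, at 159 CPM, the adhesion receptor SELP at 149 CPM, ANGPTL4 at 133 CPM and the phagocytic receptor kinase MERTK at 132 CPM. Of the 72 genes, 23 also reached 5 CPM with ATRA alone, 0 did with palbociclib alone, and 49 did with neither drug alone. The 49 depends on that limit, since APOL1, PLAAT4 and CHST15 were at 4.69, 4.65 and 4.59 CPM with ATRA alone. None of the 23 lost genes was at or under the floor in every library of a single drug. This is an unlike limit, 3 counts for lost genes against 5 CPM for gained ones. PIF1, a lost gene, was at 0.187 CPM with palbociclib alone, which did not differ from both drugs (adjusted p = 0.272, edgeR quasi-likelihood). Among the lost genes, MZB1, an endoplasmic reticulum protein of plasma cells, had been at 17.9 CPM and the mitotic kinase gene PBK at 9.41 CPM.

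Promoter sequences, from RefSeq on GRCh38.p14, are given for 3 of the largest falls, CDCA7, NEIL3 and CDCA3, because the motifs classically found at cell cycle promoters occur in them. Each run is the 250 bases before the annotated start, 5′ to 3′ on the gene's strand, with capitals for matches on either strand to any motif searched. They lie at chr2:173354622-173354871 (plus strand), chr4:177309624-177309873 (plus strand) and chr12:6851287-6851536 (minus strand).
CDCA7: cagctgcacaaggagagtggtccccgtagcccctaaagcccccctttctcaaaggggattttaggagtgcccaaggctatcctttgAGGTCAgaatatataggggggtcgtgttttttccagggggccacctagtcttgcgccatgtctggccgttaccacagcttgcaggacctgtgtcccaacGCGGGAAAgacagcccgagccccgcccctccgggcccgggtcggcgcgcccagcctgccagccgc
NEIL3: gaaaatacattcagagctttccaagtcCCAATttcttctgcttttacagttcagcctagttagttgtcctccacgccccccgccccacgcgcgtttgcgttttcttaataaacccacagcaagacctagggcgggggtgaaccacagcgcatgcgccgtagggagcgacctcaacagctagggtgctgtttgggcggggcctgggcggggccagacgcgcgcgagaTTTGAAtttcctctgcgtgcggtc
CDCA3: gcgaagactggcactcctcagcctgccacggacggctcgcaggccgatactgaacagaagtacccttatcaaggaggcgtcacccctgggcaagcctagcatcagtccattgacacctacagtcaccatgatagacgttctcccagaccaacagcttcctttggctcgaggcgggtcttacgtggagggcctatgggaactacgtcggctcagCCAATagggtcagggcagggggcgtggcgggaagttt
In CDCA7 the capitals mark GCGGGAAA, the reverse complement of the E2F form TTTCCCGC, and the nuclear receptor half-site AGGTCA. In NEIL3 they mark CCAAT and TTTGAA, the cell cycle homology region (CHR), and in CDCA3 they mark CCAAT alone. The same 250 bases of POLE2, EXO1 and CHAF1B held none of the motifs searched. These motifs are not confined to falls. Among the largest rises, TTTGAA occurred before PTGES and AQP9 and CCAAT before GDF15, AQP9 and EPAS1, while DHRS3 and CHST15 held none of the motifs.

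Windows were found for 83 of the 100 largest falls among called genes of at least 20 CPM in 1 group and no overlap between groups, and both strands were searched from 250 bases before to 50 after the start. The other motifs searched were GAGGAAGT (PU.1), TTGCNNAA (C/EBP), GGAAATTCC and GGGACTTTC (NF-kB) and CACGTG (E-box). TTTGAA was present in 33 of the 83 (39.8%) and in 15.4% of all 27305 windows in the table. TTTCCCGC or TTTGGCGC, the E2F forms, occurred in 16 (19.3%) against 2.31%, and CCAAT in 50 (60.2%) against 35.7%. TGACTCA, an AP-1 site, occurred in none of the 83 and in 4.92% of all windows. GC content was 63.5% in the falls and 57.2% in all windows. Among the 9788 tested genes with a window GC content was 64.1%, nearer to that of the falls. Their shares were 10.2% for TTTGAA, 3.87% for the E2F forms, 36.9% for CCAAT and 3.24% for TGACTCA. Those windows cover only 73.5% of tested genes, and the shares were not used as a check. The largest rises, with 70 windows of 100, were not compared for the same reason.

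The gene lists that follow are given as counts of tested members, to be read against the 41% higher and 40.7% lower of all tested genes. Members at or under 3 counts in every non-treated library passed the filter only through a treated group, so a count of rises that holds such members leans upward by construction. Of 23 neutrophil surface and effector genes, 19 were tested and 18 were higher (background 41%), 4 of the 19 being at that floor in non-treated cells, with a median log2 fold change of 5.99, or 4.52 with genes at the floor taken at their bound. Their summed level went from 530.8 to 17640 CPM. ITGAM, the CD11b chain of the complement receptor, went from 9.25 ± 0.947 to 590 ± 13.4 CPM, and NCF1, an oxidase subunit with near-identical pseudogenes, from 41.0 ± 2.63 to 1596 ± 34.6 CPM. Secondary and tertiary granule genes were 9 higher and 1 lower of 10 tested among 19 listed. PADI4, the histone-citrullinating enzyme, rose from 2.94 ± 0.495 to 500 ± 22.4 CPM, but it is annotated on more than one contig. MMP8 and OLFM4 rose from 0 to 9.35 and 2.73 CPM, at least 52.2- and 15.2-fold, while LTF, LCN2 and CD177, the classical secondary granule genes, had no count in any of the 6 libraries.

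Azurophil granule genes were 7 higher and 5 lower of 12 tested, near the background of 41% higher and 40.7% lower. With library-size scaling 5 were higher and 7 lower. At least 2-fold changes were called for 3 upward and 5 downward, and the summed level fell from 10150 to 5176 CPM. The list holds 15 genes, and 3 of them had no count in any of the 6 libraries. BPI, a bactericidal protein, went from 47.0 ± 5.22 to 247 ± 11.8 CPM and SERPINB1, a protease inhibitor, from 56.7 ± 4.26 to 754 ± 34.0 CPM. CTSG, cathepsin G, fell by 4.42 on the log2 scale to 0.638 ± 0.157 CPM, and RNASE2, an eosinophil-type ribonuclease, fell from 93.8 ± 5.68 to 1.28 ± 0.123 CPM.

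Eosinophil and basophil genes were 8 lower (background 40.7%) and 1 higher of 9 tested, and PRG2 made up most of their summed level before treatment. EPX, eosinophil peroxidase, fell from 12.3 to 0.345 CPM, and the eotaxin receptor gene CCR3 rose from 0.139 to 14.3 CPM. Progenitor genes were 6 lower and 1 higher of 8 tested, against the same background. The transcription factor genes MYB and GATA2 fell from 341 ± 5.72 to 11.2 ± 1.42 CPM and from 222 ± 2.50 to 14.7 ± 1.42 CPM. CEBPA, the granulocyte lineage factor, fell from 377 ± 9.35 to 76.4 ± 0.734 CPM.

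Genes of other cell types stayed at low levels with few exceptions. Monocyte and macrophage genes were 7 higher and 2 lower of 11 tested among 28 listed, 6 of the 11 being at the floor in at least 1 group, with summed levels of 17.2 and 86.8 CPM. Their median log2 fold change of 3.50 was 0.10 over the members with at least 10 counts in every library. Their defining marker CD14 was under the floor on average in both groups, CSF1R went from 0.261 to 9.80 CPM, and CD36 rose from 0 to 26.1 CPM. Erythroid genes were 3 lower of 3 tested, TFRC carrying nearly all of their level. Megakaryocyte genes were 3 higher and 1 lower of 4 tested, among them SELP and THBS1, which rose from 0.321 ± 0.0830 to 223 ± 11.8 CPM. T and NK cell genes were 3 higher and 2 lower of 5 tested, with CD4, also made by myeloid cells, at 120 and 264 CPM, and no epithelial or fibroblast gene passed the filter. B cell genes were 1 higher and 1 lower of 2, the lower being CD79A, at 16.7 ± 1.84 and 14.2 ± 2.00 CPM, whose call (adjusted p = 0.0414, edgeR quasi-likelihood) was lost with DESeq2 size factors (0.06), by DESeq2 (0.0869), with at least 10 counts in every library (0.0803), with the 6 libraries alone (0.063) and in 4 of the fits that left out 1 library.

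Retinoic acid response genes were 11 higher and 1 lower of 12 tested, 3 of them at the floor in non-treated cells, and the median log2 fold change was 4.78. It was 2.32 over the members with at least 10 counts in every library and 3.64 without genes also on alternate contigs. CD38, an ectoenzyme and classical ATRA-induced surface antigen, rose from 0.179 to 405 ± 8.81 CPM and the repressor gene HIC1 from 0.491 to 281 ± 2.00 CPM. RARA, the receptor itself, rose from 44.4 to 185 CPM and its partner RXRA fell from 169 to 96.4 CPM.

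All 9 chemokine genes tested of 17 listed were higher (background 41%), 3 of them at the floor before treatment, and their summed share of counts went from 0.0132% to 1.34%. CCL20, which attracts lymphocytes and dendritic cells, rose from 1.07 ± 0.358 to 82.6 ± 4.30 CPM. CCL24 was at least 145-fold higher from 0, and CXCL16 had a ratio of 1040 (95% counting interval 187 to 41300) over 1 count. Immediate early and AP-1 genes were 13 higher and 1 lower of 17 tested. EGR1, a growth factor-induced transcription factor, rose from 4.09, 4.51 and 4.90 to 539, 524 and 529 CPM, EGR2 from 0.476 to 248 CPM, FOS from 1.61 to 131 CPM and JUNB from 68.1 to 477 CPM. Either drug alone gave less EGR1, 106 CPM with ATRA and 18.8 CPM with palbociclib. Interferon-stimulated genes were 20 higher and 3 lower of 26 tested, with a smaller median of 1.43, and MX2, an antiviral GTPase gene, rose from 0.741 to 36.9 CPM.

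**Figure D5:**
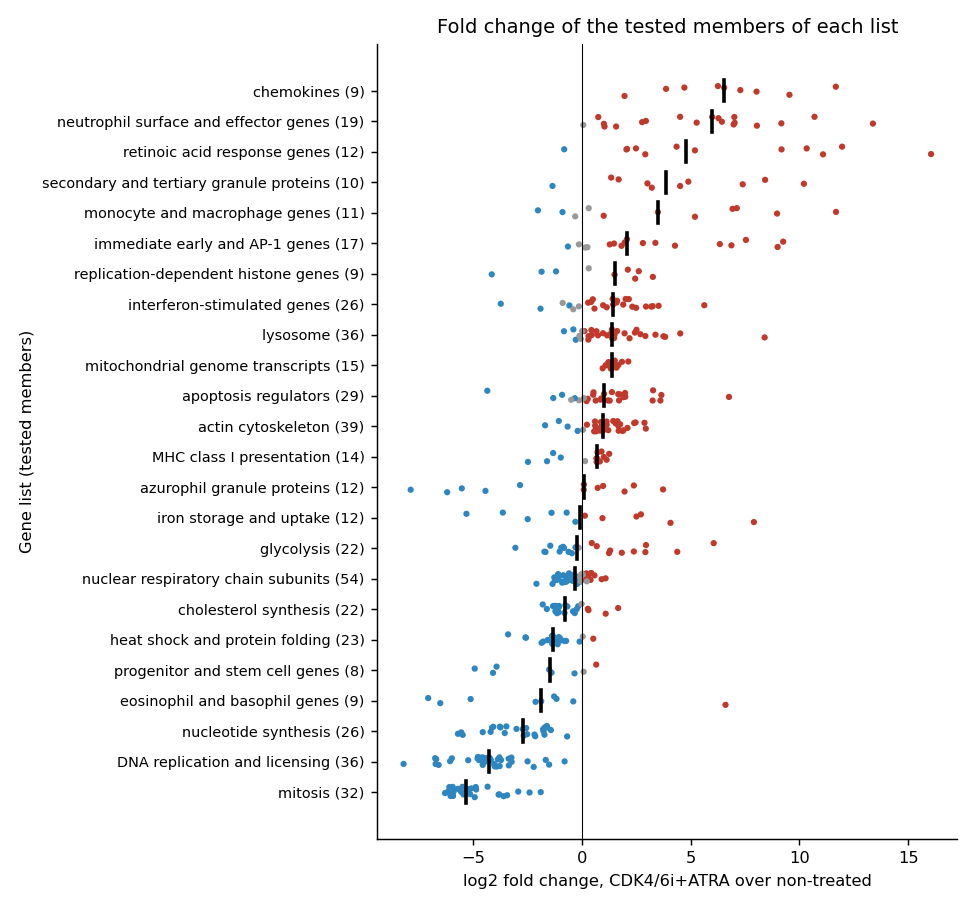
Log2 fold change of every tested member of each gene list, in CDK4/6i+ATRA over non-treated cells, with red for called higher, blue for called lower, grey for not called and a black bar for the list median; lists with fewer than 8 tested members are not drawn. All 36 DNA replication, 32 mitosis and 26 nucleotide synthesis genes lie to the left of 0, and all 9 chemokine and 15 mitochondrial genome genes to the right.

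Lysosomal genes were 30 higher and 3 lower of 36 tested, and actin cytoskeleton genes 34 higher and 4 lower of 39, against a background of 41% higher and 40.7% lower. With library-size scaling the lysosomal split was 26 higher and 7 lower. PSAP, the saposin precursor, rose from 520 ± 17.1 to 2383 ± 63.9 CPM, and the actin-severing GSN from 50.9 ± 0.966 to 391 ± 14.1 CPM. EZR, which links actin to the membrane, fell from 207 ± 4.33 to 64.4 ± 1.40 CPM. The summed share of counts went from 0.426% to 1.23% for the lysosome and from 3.20% to 5.78% for the actin cytoskeleton. MHC class I genes were 9 higher and 4 lower of 14 tested, with a median of 0.70 that turned to −0.14 without genes also on alternate contigs, while their summed level fell from 5886 to 3014 CPM, and MHC class II genes were 2 higher and 1 lower of 3 tested among 14 listed. Many HLA genes, HLA-E among them at 0 in every library, are annotated on more than one contig, so their levels are uncertain. CANX, a chaperone on that list annotated on more than one contig, fell from 1638 ± 51.6 to 542 ± 21.9 CPM, and the chaperone gene CALR from 2730 ± 62.7 to 493 ± 12.4 CPM.

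Proliferation genes fell without exception in 3 lists. Of the DNA replication and licensing genes, 36 of 36 were lower, with a median log2 fold change of −4.28, and of the mitosis genes 32 of 32, with a median of −5.33. MCM7, a subunit of the replicative helicase, fell from 659, 665 and 631 to 27.2, 24.0 and 23.6 CPM. TOP2A fell from 782, 782 and 772 to 12.9, 13.2 and 13.2 CPM, although it was higher with ATRA alone, at 1114 CPM, and at 58.2 CPM with palbociclib alone. All 26 nucleotide synthesis genes fell, among them RRM2 of ribonucleotide reductase, from 441 ± 15.3 to 9.94 ± 1.46 CPM, and the purine enzyme gene PAICS, from 684 ± 18.2 to 39.2 ± 2.53 CPM. RPA2, of the single-strand binding complex RPA, fell by 0.79 on the log2 scale and was the only one of the 36 replication genes to fall less than 2-fold. Replication-dependent histone genes, mostly without a poly(A) tail, were tested for 9 of 36, with 5 higher and 3 lower.

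Glycolysis genes were 10 higher and 11 lower of 22 tested, near the background of 41% and 40.7%, and their median of −0.21 turned to 0.16 without genes also on alternate contigs. The glucose transporter genes parted, with SLC2A3 rising from 26.6 ± 0.338 to 558 ± 9.44 CPM and SLC2A1 falling from 102 ± 3.19 to 37.7 ± 1.07 CPM. HK3, the myeloid hexokinase, rose from 5.96 to 398 CPM and the lactate exporter SLC16A3 from 260 to 2015 CPM, while LDHA, annotated on more than one contig, fell from 1136 to 137 CPM. Nuclear genes of the respiratory chain were 35 lower and 12 higher of 54 tested, their median log2 fold change being −0.32, beside the rise of all 15 mitochondrial genome transcripts, and with library-size scaling 41 were lower and 6 higher, with a median of −0.58. ATP5MC1, of the ATP synthase ring, fell from 122 ± 5.15 to 28.8 ± 2.25 CPM, and NDUFA4 rose from 126 to 268 CPM.

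Cholesterol synthesis genes were 17 lower and 4 higher of 22 tested, with the sterol-regulated INSIG1 at 90.8 and then 290 CPM. Heat shock and folding genes were 21 lower and 1 higher of 23 tested, and their summed level fell from 16500 to 6858 CPM. HSPD1 and HSPE1, the mitochondrial chaperonin pair, fell from 1162 to 194 CPM and from 70.5 to 6.76 CPM, and DNAJB1 rose from 78.3 to 113 CPM. Iron genes were 6 higher and 6 lower of 12, also near the background, or 5 and 7 with library-size scaling. The ferritin heavy chain gene FTH1 rose from 118 to 776 CPM, and the ferrireductase gene STEAP3 fell from 34.7 to 0.868 CPM alongside TFRC.

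Apoptosis regulators were 22 higher and 4 lower of 29 tested, against a background of 41% and 40.7%. The anti-apoptotic genes MCL1 and BCL2A1 rose from 194 ± 2.02 to 1858 ± 24.9 CPM and from 3.89 ± 0.230 to 424 ± 13.4 CPM, and BCL2, also anti-apoptotic, fell from 122 ± 4.82 to 6.03 ± 0.621 CPM. PMAIP1, which encodes the pro-apoptotic NOXA, rose from 16.8 to 213 CPM, and the death receptor gene FAS fell from 11.9 to 4.82 CPM.

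Against either drug alone, most genes also differed, with 9291 (69.8%) called against ATRA and 10473 (78.6%) against palbociclib. Of the 20 most abundant genes in CDK4/6i+ATRA cells, 20 were higher than with ATRA (36.9% of all tested genes were) and 19 higher than with palbociclib (39.1%), the exception being the elongation factor gene EEF2, at 9178 CPM after both drugs and 10418 CPM after palbociclib. These 20 were picked for a high level in the doubly treated cells, so the counts lean upward by construction. CD38 was at 405 CPM after both drugs and 399 CPM after ATRA, a log2 difference of 0.02 that did not pass the test (adjusted p = 0.672, edgeR quasi-likelihood).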

How the data were processed

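HL60 cells were profiled by RNA-seq in 12 libraries, 3 per treatment. The authors trimmed reads (Trimmomatic 0.33, submitters' processing notes), aligned them to hg38 with STAR 2.7.11a under RefSeq annotation and deposited raw counts per gene, named by the study's methods as RSEM output; the table's layout is that of featureCounts. Genes also placed on alternate contigs can lose reads in such counting. From the deposited counts, edgeR 4.0.16 (R 4.3.3) filtered genes by expression over the 4 groups and applied TMM scaling. It fitted a quasi-likelihood model of the 4 groups to all 12 libraries, with Benjamini-Hochberg adjustment over 13318 of 59251 genes at 0.05. The fit was run on simulated data in which only a small part of the genes changed, so scaling under a shift as wide as this one was not tested. TPM used the deposited gene length. Intervals and floors cover counting error only. Shares were compared with exact two-sided permutation tests. Genes named were the most abundant, the most changed and the least changed, up to 4 per gene list and the lineage markers, and further genes were picked with their values in view. The comparison and the lists were chosen with earlier results of these data known. Alternatives were DESeq2 1.42.0, other scalings, filters, a replicate block and leaving out each library. Some genes are not reported here.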

Additional observations from a re-analysis of the deposited data

How the results depend on the processing

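The number of called genes was 10880 with DESeq2 size factors, 10807 with library size alone, 8902 with at least 10 counts in every library, 11577 with no filter, 10500 from the 6 libraries alone, 10650 by DESeq2 and 10322 without genes also on alternate contigs (an alternative added after seeing the data), against 10885. Leaving out 1 library gave 10678 to 10837. Same-numbered libraries did not deviate together (correlations −0.07, 0.01 and −0.06, and no library matched its own number best), and a replicate block gave 10824. With a floor of 10 counts, 160 and 99 genes were detected in only 1 of the compared groups, and leaving out 1 library gave 72 to 89 and 21 to 30. The 50 highest genes held 21.98% and 16.37% without mitochondrial genes, and 39.98% and 28.18% as TPM; leaving out 1 library gave 23.5% to 24.6% and 16.5% to 16.7%. With library size alone, gains and losses over the genes called under that scaling were 341000 and 340800 CPM. Under that scaling the azurophil median was −0.17, RHOA −0.21, SRGN −0.17, OAZ1 −0.15, EIF4G2 −0.14 and CD33 −0.18 (log2). With no filter RHOA was −0.051, SRGN −0.017 and CD33 −0.02, and without alternate-contig genes the MHC class I median was −0.14 against 0.70 and the glycolysis median 0.16 against −0.21. The cause was not tested. Depth limits genes near the floor of 3 counts.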

Other observations

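By annotated gene type, which the comparisons above did not use, 509 of 1116 tested lncRNA genes were higher in CDK4/6i+ATRA cells (45.6%) and 235 lower (21.1%), their median log2 fold change being 0.55. Over all tested genes the shares were 41% and 40.7% and the median 0.02. Gene types were not matched for level, and of all 2217 tested genes under 1 CPM in non-treated cells 1202 rose and 208 fell. Whether level accounts for the lncRNA split was not tested. Among 10865 protein-coding genes 41.4% were higher and 44.2% lower, with a median of −0.04. None of 38 tested snoRNA genes was called higher by edgeR, and 22 (57.9%) were lower, with a median of −1.12. Abundant lncRNA genes, chosen after their values were seen, were SNHG29, GAS5 and NORAD. SNHG29 and GAS5 are host genes of snoRNAs, and NORAD binds Pumilio proteins. Their log2 fold changes were 0.80, 1.18 and 1.03.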
